A study of Mus musculus with 6 samples.

Results

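Oligodendrocyte progenitor genes are the transcription factors and surface proteins by which the dividing precursors of myelin-forming cells are recognised. The 9 genes described here were found by name in a deposited table of 27372 genes: the transcription factor genes Olig1, Olig2, Sox10, Sox5 and Sox6, and Pdgfra, Cspg4, Lhfpl3 and Neu4, which encode surface, membrane and enzyme markers. All 9 passed the filter on low counts. They were measured by bulk RNA sequencing of mouse neural stem cells isolated at postnatal day 7, grown in proliferation medium with EGF and bFGF at 20 ng/ml of each, and harvested on day 7 of culture. The 6 libraries were 3 controls of WT genotype and 3 of genotype Sirt6 knockout, which the series text calls a conditional knockout of Sirt6, a NAD-dependent histone deacylase. No label names the promoter or Cre line behind the deletion, the sex of the mice or separate animals for the 3 libraries of a group, so a p-value here reflects the spread of these 6 samples, some or all of which may be technical. The study asked what Sirt6 does to expression in neural stem cells.

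Sirt6 itself stood higher in the knockout-labelled libraries, at 17.5 ± 3.80 CPM across controls against 26.8 ± 2.29 CPM under the knockout label (SD, n = 3 each; CPM is the gene's count scaled to a common library size, with TMM factors). This is a count over the whole gene, and no value from the deleted part alone was read, so it cannot check the deletion. By edgeR the log2 fold change of Sirt6 was 0.61 ± 0.19 (SE; unadjusted p = 0.0146, adjusted p = 0.998). Since its count was not lower under the knockout label and the deletion was not checked, higher and lower refer to the label a library carries and not to loss of Sirt6. Library totals ran from 17198852 to 18297275 counts. The stem cell genes Nes, Sox2, Fabp7 and Vim were detected in every library, Nes at 328 CPM or more. The libraries also differed in Y-linked transcripts, whose summed level was 67.5, 234 and 0 CPM in controls 1, 2 and 3 and at most 0.755 CPM in the knockout-labelled libraries. Values from a fit with that level as covariate are given beside the genes. Only controls 1 and 2 stood well above 0 in it, so it is largely confounded with the label. The fitted group differences therefore lean on control 3 and cannot separate the level from the label.

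As background, oligodendrocyte progenitors arise from ventricular stem cells under the basic helix-loop-helix factors OLIG1 and OLIG2, which bind E-box sequences. The progenitors also express the SOX factor SOX10. PDGF acting through its receptor PDGFRA keeps them dividing, CSPG4 (the NG2 proteoglycan) marks their surface, and SOX5 and SOX6 hold back the targets of SOX10 until they mature. During maturation PDGFRA and CSPG4 are lost, while SOX10 and OLIG proteins persist and SOX10 drives Myrf and the myelin genes. Stem cells grown in EGF also express Olig2 and Olig1, so neither gene by itself marks a committed progenitor.

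The sequence before the transcription start is shown for Olig2 and Cspg4, a factor gene and a surface marker gene that both stood lower in every knockout-labelled library, and for Pdgfra, a surface marker gene whose groups overlapped. Sequences are RefSeq's, on the forward strand of GRCm38.p6, 5′ to 3′, and end before the start of the gene, for Cspg4 before the start given in the deposited table, which lies ahead of RefSeq's. They cover chr16:91225300-91225549 for Olig2, chr9:56864854-56865032 for Cspg4 and chr5:75152001-75152250 for Pdgfra. Capitals mark the E-box CANNTG, the class of sequence bound by basic helix-loop-helix factors such as the OLIG proteins, and the GC box GGGCGG or its reverse complement CCGCCC.
Olig2: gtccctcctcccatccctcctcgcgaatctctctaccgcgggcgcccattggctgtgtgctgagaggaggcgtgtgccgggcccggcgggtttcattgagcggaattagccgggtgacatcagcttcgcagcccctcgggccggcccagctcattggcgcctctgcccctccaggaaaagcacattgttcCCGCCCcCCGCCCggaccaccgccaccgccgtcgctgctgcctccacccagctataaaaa
Cspg4: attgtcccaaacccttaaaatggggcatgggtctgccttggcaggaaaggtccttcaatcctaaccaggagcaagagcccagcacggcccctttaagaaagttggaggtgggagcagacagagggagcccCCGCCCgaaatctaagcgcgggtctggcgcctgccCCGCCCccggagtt
Pdgfra: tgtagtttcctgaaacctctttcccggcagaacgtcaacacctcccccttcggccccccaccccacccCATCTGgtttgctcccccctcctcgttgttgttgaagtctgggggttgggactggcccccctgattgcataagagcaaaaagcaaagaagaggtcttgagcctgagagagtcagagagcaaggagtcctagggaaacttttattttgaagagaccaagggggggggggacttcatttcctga
In the 250 bases before the RefSeq start, Olig2 held 2 GC boxes, at positions -60 and -53 from the start, and Cspg4 held 2, at -120 and -85, and neither held an E-box. Pdgfra held 1 E-box, at -182, and no GC box. Both motifs were searched on both strands and did not overlap. Over all 32851 RefSeq promoter windows of that length, 66.2% held an E-box and 32.7% a GC box. Of the 9 genes, 7 were matched to this promoter table by symbol. The matched genes not shown all had overlapping groups. Of them, Lhfpl3 held 2 E-boxes and 1 GC box, Neu4 held 1 E-box and no GC box, and Sox5 held neither. Sox6 held 3 E-boxes and 4 GC boxes in the window from 116030998, and E-boxes but no GC box in its other windows. Any link between these motifs and the group differences was not tested.

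Of the 9 genes, 4 had groups that did not overlap. Sox10 was higher in all 3 knockout-labelled libraries, and Olig1, Olig2 and Cspg4 were lower in all 3. In bulk RNA, a change in the number of cells of a type and a change in RNA per cell cannot be told apart. Over all 15087 genes tested the groups did not overlap in 8.60%, in 4.88% with the higher and in 3.73% with the lower values under the knockout label. With a library left out, a choice made after seeing the data that can only add to the count, 5 of the 9 did not overlap without control 2 (15.3% of all genes), 6 without control 3 (21.9%) and 5 without the knockout-labelled library 2 (23.6%). The genes added were Sox6, then Neu4 and Pdgfra, then Sox5. The other 5 genes, Sox5, Sox6, Pdgfra, Lhfpl3 and Neu4, overlapped. No gene passed edgeR's quasi-likelihood test with Benjamini-Hochberg adjustment at 0.05, neither among the 9 nor over all genes (0 called, 0.00%). At an unadjusted p under 0.05 stood 3 of the 9, Sox10, Cspg4 and Olig2, against 3.47% of all genes tested (524 genes; 790 without control 3 and 1025 without the knockout-labelled library 2). By DESeq2 0 of the 9 were called either, and 5 genes of the whole table. The median log2 fold change of the 9 was -0.01, with 4 above and 5 below 0, against 6.6e-05 over all genes tested. Without control 3 that median was -0.24.

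**Figure D1:**
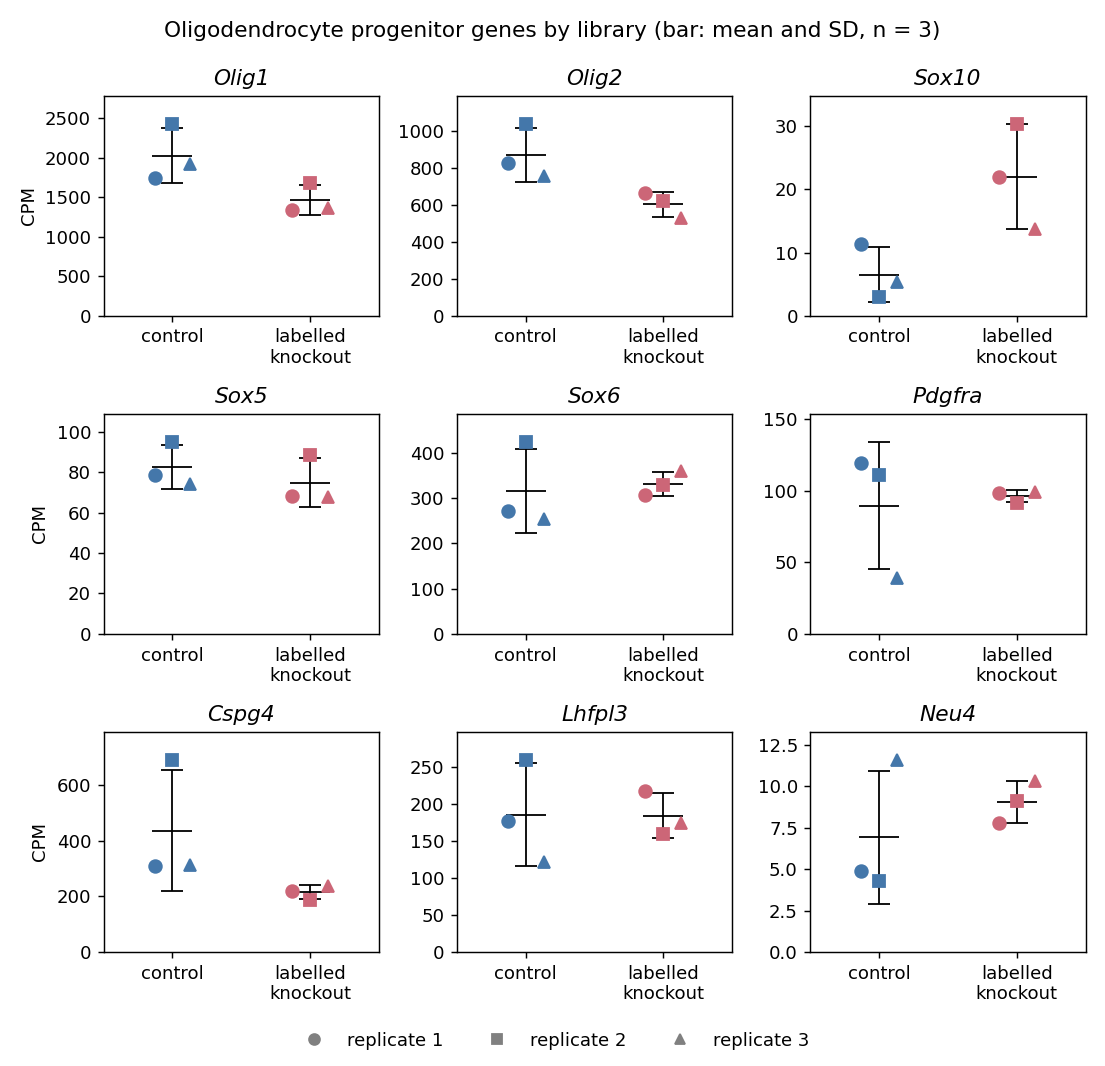
Level of each of the 9 genes in CPM (vertical axis, from 0) in the 3 control libraries and the 3 knockout-labelled libraries, with symbols for the replicate number and bars for the mean and SD (n = 3). The 3 knockout-labelled libraries lie above the controls for Sox10 and below them for Olig1, Olig2 and Cspg4, while the other 5 genes overlap.

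Sox10, a factor gene of the oligodendrocyte lineage, had the largest fold difference of the 9. Its counts were 197, 55 and 93 in controls 1, 2 and 3 and 408, 507 and 241 in the knockout-labelled libraries 1, 2 and 3. That is 11.3, 2.96 and 5.32 CPM against 22.01, 30.3 and 13.8 CPM. The lowest knockout-labelled library was above the highest control, control 1, and control 2 was the lowest of all, with an exact Poisson 95% interval of 41.4 to 71.6 counts that covers counting error only. The mean was 6.54 ± 4.32 CPM across controls against 22.04 ± 8.25 CPM under the knockout label (SD, n = 3 each). By edgeR the log2 fold change was 1.75 ± 0.51 (SE), a 3.37-fold difference, with an unadjusted p of 0.0108 and an adjusted p of 0.998. Without control 1 it was 2.41, without control 2 it was 1.404, and 1.26 with the Y-linked covariate. Sox10 (ENSMUSG00000033006) occupies 79154913 to 79164490 of chromosome 15 (mm10, minus strand), where GENCODE M21 places no further gene.

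The genes of the OLIG factors were the most abundant of the set and stood lower in the knockout-labelled libraries. Olig1 measured 1741, 2420 and 1914 CPM in controls 1, 2 and 3, and 1339, 1680 and 1360 CPM in their knockout-labelled counterparts. The highest knockout-labelled library, number 2, was just under the lowest control, number 1. Olig2 measured 825, 1035 and 753 CPM in controls 1, 2 and 3, and 661, 620 and 528 CPM in their knockout-labelled counterparts. Here too control 2 was the highest of all, and the groups were apart. The log2 fold change by edgeR was -0.47 ± 0.21 (SE) for Olig1 (unadjusted p = 0.0574, adjusted p = 0.998), and -0.53 ± 0.19 for Olig2 (unadjusted p = 0.0236, adjusted p = 0.998). As ratios of group means these are 0.721 for Olig1 and 0.692 for Olig2. The pair lies on the plus strand of chromosome 16 in mm10, Olig2 (ENSMUSG00000039830) from 91225550 to 91228677 and Olig1 (ENSMUSG00000046160) from 91269772 to 91271933, with 41094 bases between them. With the Y-linked covariate the log2 fold changes were -0.29 for Olig1 and -0.32 for Olig2.

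The genes of the SOXD factors, Sox5 and Sox6, which keep progenitors from maturing early, had groups that overlapped. Sox5 measured 78.6, 94.7 and 74.2 CPM in controls 1, 2 and 3, and 68.1, 88.6 and 67.5 CPM in their knockout-labelled counterparts. In each group library 2 was the highest, and the log2 fold change of -0.14 ± 0.16 (SE; edgeR adjusted p = 0.998) was smaller than its error. Sox6 measured 270.5, 423 and 253 CPM in controls 1, 2 and 3, and 306, 330 and 359 CPM in their knockout-labelled counterparts. Control 2 was again the highest and the other 2 controls the lowest, with a log2 fold change of 0.07 ± 0.22 (SE). With the Y-linked covariate it was 0.44 for Sox6 and 0.018 for Sox5. Both lie on minus strands, Sox5 (ENSMUSG00000041540) on chromosome 6 from 143828425 to 144781977 and Sox6 (ENSMUSG00000051910) on chromosome 7 from 115470872 to 116038796. The antisense gene Sox5os1, not analysed here, shares 1330 exonic bases with Sox5, and no label gives the strand setting that would separate their reads.

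The surface markers Cspg4 and Pdgfra, which are used together to sort progenitors, are taken in turn. Cspg4 was at 310 CPM in control 1, 688 CPM in control 2 and 311 CPM in control 3, and at 219, 188 and 238 CPM in the knockout-labelled libraries. All 3 of the latter were below all controls, but control 2 was more than 2 times as high as either other control. The mean was 436 ± 218 CPM across controls against 215 ± 25.1 CPM under the knockout label (SD, n = 3 each), with an edgeR log2 fold change of -1.02 ± 0.33 (SE; unadjusted p = 0.0169, adjusted p = 0.998). Without control 2 it was -0.53, against control 3 alone -0.53, and with the Y-linked covariate -0.39. Cspg4 (ENSMUSG00000032911) lies on chromosome 9, plus strand, from 56865033 to 56899870.

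Pdgfra, the receptor for the mitogen PDGF-AA, measured 119, 111 and 38.8 CPM in controls 1, 2 and 3, and 98.0, 91.5 and 99.2 CPM in their knockout-labelled counterparts. Control 3 was the single low library, and the knockout-labelled libraries lay between it and the other controls. The log2 fold change was 0.10 ± 0.38 (SE) by edgeR (adjusted p = 0.998). It was -0.25 without control 3 and 1.31 against control 3 alone, with a sign that depended on control 3, and 0.62 with the Y-linked covariate. Pdgfra (ENSMUSG00000029231) lies on chromosome 5, plus strand, from 75152292 to 75198215.

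The membrane protein gene Lhfpl3 measured 177, 259 and 121.5 CPM in controls 1, 2 and 3, and 218, 160 and 175 CPM in their knockout-labelled counterparts. Its groups overlapped fully, the knockout-labelled libraries all lying within the range of the controls. The log2 fold change was -0.01 ± 0.28 (SE) by edgeR. Its exons share 567 bases with those of A930003O13Rik on the opposite strand, a noncoding gene with a mean of 78.5 counts per library. Neu4, a sialidase gene, was the rarest by length, at 4.89, 4.31 and 11.6 CPM in controls 1, 2 and 3 against 7.77, 9.09 and 10.3 CPM under the knockout label. Control 3, with 202 counts, was the highest of all, while controls 1 and 2, with 85 and 80 counts, were the lowest, so the log2 fold change of 0.39 ± 0.40 (SE) was within its error. It was 0.98 without control 3 and -0.35 against control 3 alone. With the Y-linked covariate Neu4 stood at -0.052 and Lhfpl3 at 0.49. Both lie on plus strands, Lhfpl3 (ENSMUSG00000106379) on chromosome 5 from 22746059 to 23275597 and Neu4 (ENSMUSG00000034000) on chromosome 1 from 94020451 to 94028334.

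Levels between genes can be compared only per length, here as CPM per kilobase of merged GENCODE M21 exons, which ignores which isoform is used. In the controls the order was Olig1 at 937 ± 163, Olig2 at 344 ± 57.9, Lhfpl3 at 57.9 ± 21.6, Cspg4 at 36.6 ± 18.3 and Sox6 at 21.3 ± 6.31 CPM per kilobase (SD, n = 3). Below them came Pdgfra at 8.92 ± 4.40, Sox5 at 5.74 ± 0.751, Sox10 at 2.14 ± 1.41 and Neu4 at 1.49 ± 0.869 CPM per kilobase. Neighbours in this order whose library ranges overlapped were Lhfpl3 and Cspg4, Cspg4 and Sox6, Pdgfra and Sox5, and Sox10 and Neu4. In the knockout-labelled libraries Cspg4, at 18.03 ± 2.11 CPM per kilobase, stood below Sox6, at 22.3 ± 1.79, and Sox10, at 7.23 ± 2.70, had a higher mean than Sox5, at 5.20 ± 0.834, though with ranges that overlapped. Averaged over all libraries, Olig1 stood at percentile 99.9 and Olig2 at 99.6 of all genes tested on this scale, Sox10 at 44.6 and Neu4 at 25.7. The genes of the OLIG factors were thus far more abundant than that of SOX10 in every library.

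Titles number the libraries of each group 1 to 3, and same-numbered libraries deviated together from their group means, so differences within numbers were examined as well. Sox10 was higher in all 3 pairs, by 0.95, 3.31 and 1.36 in log2 CPM for pairs 1, 2 and 3. Olig1 was lower in all 3, by differences of -0.38, -0.53 and -0.49, and Olig2 by -0.32, -0.74 and -0.51. Pair 2 gave the largest difference for Sox10, Olig1 and Olig2, and of these 3 genes the pairs were closest to each other for Olig1. Cspg4 was also lower in all 3 pairs, at -0.50, -1.87 and -0.38, with pair 2 far from the others. Sox5 was lower in all 3 by small amounts, -0.21, -0.10 and -0.14. The remaining 4 genes differed in sign among pairs, such as Pdgfra at -0.28, -0.28 and 1.35.

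With the replicate number as a block, DESeq2 called 3 of the 9 at an adjusted p under 0.05, against 3.56% of the 13044 genes to which it gave an adjusted p, 1.17% higher and 2.39% lower. They were Sox10, higher with a log2 fold change of 1.85 ± 0.39 (SE; adjusted p = 0.000247), and Olig1 and Olig2, lower with -0.47 ± 0.13 (adjusted p = 0.0120) and -0.52 ± 0.14 (adjusted p = 0.0127). Cspg4 was not called, at -0.91 ± 0.46 (DESeq2 adjusted p = 0.440). Without the block DESeq2 called 0 of the 9, the smallest adjusted p being 0.305 for Sox10. With the block edgeR called 0 as well, with adjusted p of 0.193 for Olig2, 0.228 for Olig1, 0.238 for Sox10 and 0.341 for Cspg4. By edgeR with the block these 4 had an unadjusted p under 0.05, where 12.5% of all genes did. In the authors' deposited table, whose log2 ratio is control over knockout, Sox10 stands at -1.75 (adjusted p = 0.193), Cspg4 at 1.02 (0.464), Olig2 at 0.53 (0.858) and Olig1 at 0.47, the same directions as above.

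**Figure D2:**
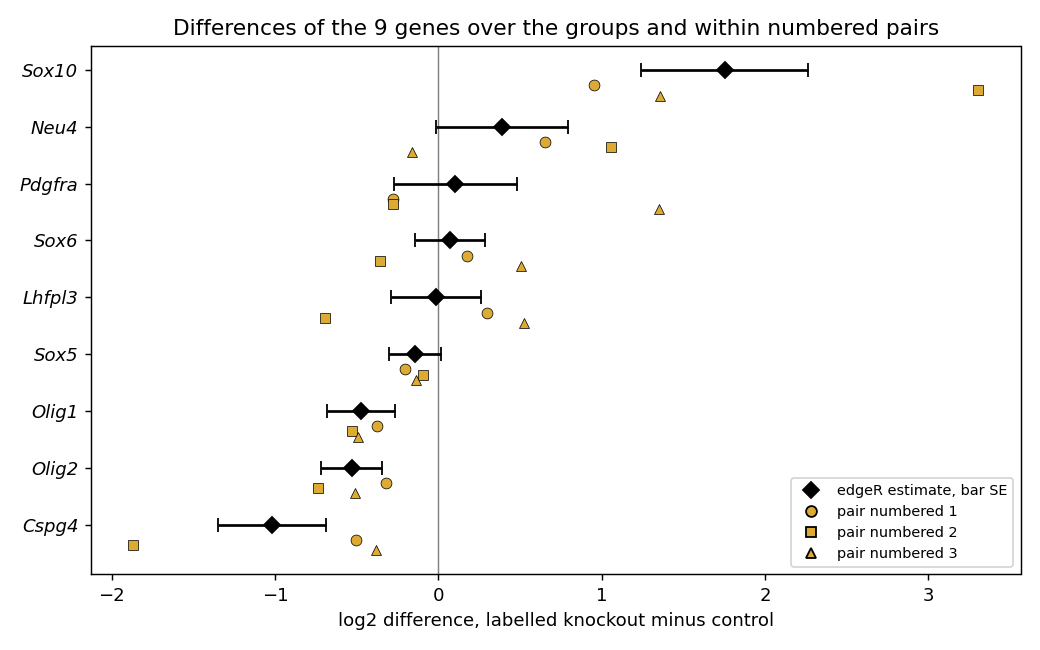
Log2 difference between the knockout-labelled libraries and the controls for the 9 genes (horizontal axis), with edgeR's estimate and SE as diamonds with bars and the differences in log2 CPM within each numbered pair as small symbols. All 3 pairs lie above 0 for Sox10 and below 0 for Cspg4, Olig2, Olig1 and Sox5, and the pairs differ in sign for the other 4 genes.

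Whether genes of the set shifted relative to each other was examined by 3 ratios within libraries, in which the scaling of the library cancels. The log2 ratio of Sox10 to Olig2 was -6.17, -8.39 and -7.11 across controls against -4.90, -4.35 and -5.24 under the knockout label. Every knockout-labelled library had the higher ratio, a difference of 2.39 in the mean (exact two-sided permutation test over 3 against 3 libraries, p = 0.10, the smallest this design allows, or 0.15 adjusted over the 3 ratios). Sox10 was higher and Olig2 lower in all 3 knockout-labelled libraries, so this outcome was fixed by values already given and adds no support. The log2 ratio of Cspg4 to Pdgfra was 1.38 in control 1, 2.64 in control 2 and just above 3 in control 3, against 1.16, 1.04 and 1.26 under the knockout label. It was lower in all of the latter, by a difference of -1.18 in the mean (exact permutation p = 0.10, 0.15 adjusted), with control 1 close to them. The log2 ratio of Olig1 to Olig2 was 1.08 to 1.35 across controls against 1.02 to 1.44 under the knockout label, a difference of 0.06 (exact permutation p = 0.70). The ratios of the neighbouring OLIG genes overlapped between the groups.

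**Figure D3:**
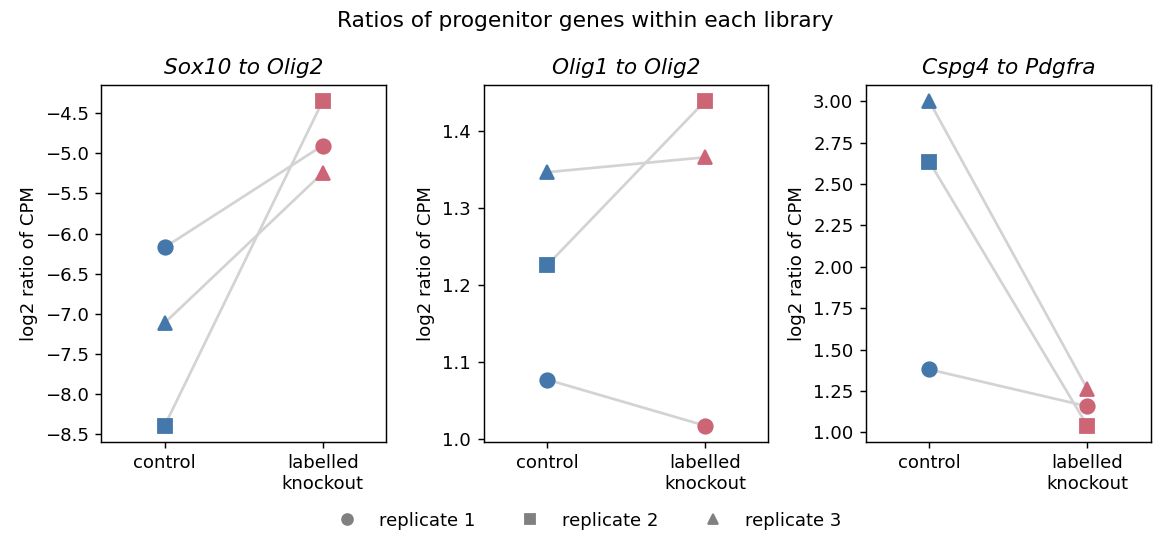
Log2 ratio of CPM between 2 genes within each library (vertical axes, which do not start at 0) for Sox10 to Olig2, Olig1 to Olig2 and Cspg4 to Pdgfra, with lines joining same-numbered libraries. The Sox10 to Olig2 ratio is higher and the Cspg4 to Pdgfra ratio lower in all 3 knockout-labelled libraries, and the Olig1 to Olig2 ratios overlap.

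Other genes enriched in oligodendrocyte progenitors stood on both sides of 0. Of 12 tested, 6 had a log2 fold change above 0 and 6 below, with a median of -0.00071. By DESeq2 with the block 1 was called higher, against 1.17% over all genes, and 1 lower, against 2.39%. The first was Tnr, which encodes the matrix protein tenascin-R, with 431, 474 and 498 CPM in controls 1, 2 and 3 against 923, 605 and 857 CPM under the knockout label (log2 fold change 0.77 ± 0.20 by edgeR). The other was Xylt1, whose enzyme starts the sugar chains of proteoglycans such as CSPG4. Xylt1 measured 330, 569 and 356 CPM in controls 1, 2 and 3, and 253, 303 and 226 CPM in their knockout-labelled counterparts (-0.68 ± 0.24). For both genes the groups were apart, as they were for 8.60% of all genes tested, and the adjusted p by edgeR was 0.998. Cacng4, an auxiliary subunit of AMPA receptors, overlapped, at -0.57 ± 0.36.

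Genes of later stages stood mostly higher in the knockout-labelled libraries. Of 12 genes of committed precursors, 11 had a log2 fold change above 0, with a median of 0.50, 4 had groups apart, and DESeq2 with the block called 4, all higher. Of 9 tested myelin genes 8 were above 0, with a median of 0.90, 3 had groups apart and 5 were called by DESeq2 with the block, all higher. By edgeR 0 of these passed over all genes tested, and 5 of the committed precursor and 4 of the myelin genes had an unadjusted p under 0.05. Over all genes the shares were 4.88% for groups apart and higher, 1.17% for called higher by DESeq2 with the block and 3.47% for an unadjusted p under 0.05 by edgeR. Summed over its list, the committed precursor level was 1543 to 1891 CPM across controls against 2036 to 2438 CPM under the knockout label, and the myelin level 307 to 551 against 711 to 1021 CPM. Among committed precursor genes the log2 fold change was 1.62 ± 0.59 (SE) for Enpp6, 1.35 ± 0.53 for Bcas1 and 1.06 ± 0.39 for Myrf, the factor gene that SOX10 switches on. The groups were apart for Enpp6 but overlapped for Bcas1 and Myrf. Among myelin genes it was 2.63 ± 0.56 for Mbp and 0.90 ± 0.21 for Cnp. The sums of both lists did not overlap, and Sox10, which is also expressed at those stages, was higher in the same libraries. Within the knockout-labelled libraries Sox10 was highest in number 2, where the summed levels of both lists were the lowest of the 3. Any link between the level of Sox10 and these lists was not tested.

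**Figure D4:**
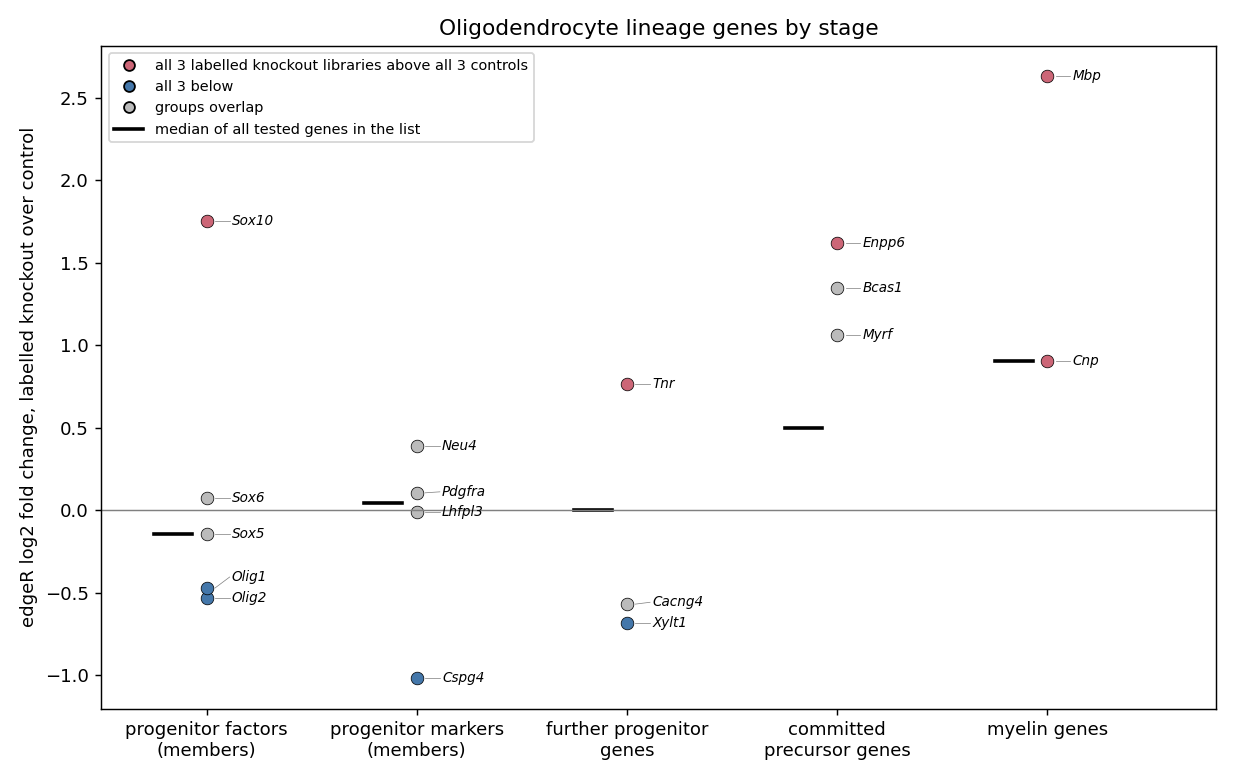
EdgeR log2 fold change (vertical axis) by stage list, for the 9 genes and for genes named from the other lists for their large fold changes, coloured by whether the 3 knockout-labelled libraries lay above, below or among the controls, with a bar for the median of all tested genes of each list. The 9 progenitor genes spread on both sides of 0, from Cspg4 at -1.02 to Sox10 at 1.75, while the medians of the committed precursor and myelin lists are 0.50 and 0.90.

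Ligands and partners of the 9 were examined from lists as well. Of the PDGF ligands, Pdgfa, the main ligand of PDGFRA, measured 27.2, 12.5 and 19.3 CPM in controls 1, 2 and 3, and 31.2, 11.4 and 23.9 CPM in their knockout-labelled counterparts, varying more with the number than with the group (log2 fold change 0.18 ± 0.41 by edgeR). Pdgfc was lower in all 3, with 6.35 to 8.41 CPM across controls against 4.01 to 4.84 CPM, and a log2 fold change of -0.72 ± 0.24. Among 10 basic helix-loop-helix partners and ID inhibitors of the OLIG proteins, 5 were above 0 and 5 below, 0 had groups apart and 0 were called by DESeq2 with the block. Of the ID inhibitors, Id4 stood at 0.52 ± 0.54 and Id1 at -0.49 ± 0.52. Of 9 other SOX genes 5 were above 0 and 0 were called by DESeq2 with the block. Sox8, the SOXE relative of Sox10, stood at 0.27 ± 0.16, Sox4 at 0.23 ± 0.16, and Sox21 was the single SOX gene of that list with groups apart, at 0.37 ± 0.16. Of 5 tested paralogs of Neu4 and Lhfpl3, 0 had groups apart, with Lhfp at 0.64 ± 0.37, Lhfpl4 at -0.19 ± 0.14 and Neu1 at 0.15 ± 0.14.

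Some of the 9 genes are also expressed by other cell types, whose markers were read beside them. Pericytes share Cspg4, but 7 of the 9 pericyte genes with a row in the table stayed under 1 CPM in every library, Pdgfrb among them. Notch3 (0.48 ± 0.21) makes up nearly all of the list's sum, 59.0 to 97.3 CPM across controls against 97.6 to 131 CPM under the knockout label. Fibroblasts share Pdgfra, and all 6 of their genes stayed under 1 CPM in every library, with sums of at most 0.956 CPM. Schwann cells share Sox10, and the sum of their 3 genes was 10.1 to 19.0 CPM across controls against 8.88 to 13.7 CPM under the knockout label. Prx stood at a log2 fold change of -0.96 ± 0.51 and Egr2 at -0.45 ± 0.33. All 5 microglial genes were under 1 CPM, and the sum of 5 endothelial genes was at most 8.01 CPM, with Flt1 at 0.60 ± 0.92 and Kdr at -0.10 ± 0.44.

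Markers of stem cells, astrocytes, neuroblasts and dividing cells differed between libraries too. The summed level of 10 mitotic genes was 1533, 2794 and 1002 CPM across controls 1, 2 and 3 against 693, 1793 and 475 CPM under the knockout label. All 10 were below 0 in log2 fold change, with Foxm1 at -1.04 ± 0.45, Plk1 at -0.95 ± 0.55 and Aurkb at -0.93 ± 0.54. DESeq2 with the block called all 10 lower, against 2.39% over all genes, while edgeR called 0 and had 0 at an unadjusted p under 0.05. Of the 10, 0 had groups apart. Control 2, the highest in mitotic genes, was also the highest in Olig1, Olig2, Sox5, Sox6, Cspg4 and Lhfpl3 and the lowest in Sox10 and Neu4. The knockout-labelled library 2, with the next highest mitotic sum, had the highest Sox10 and the lowest Cspg4 of all 6. Among the knockout-labelled libraries it was also the highest in Olig1 and Sox5 and the lowest in Pdgfra and Lhfpl3. In Olig2, Sox6 and Neu4 it lay between the others of its group. The astrocyte sum was 2670 to 6951 CPM across controls against 4515 to 9075 CPM under the knockout label, with all 11 genes above 0 in log2 fold change. DESeq2 with the block called 5 of them higher, against 1.17% over all genes. Groups were apart and higher for 2 of the 11, against 4.88% over all genes. Gfap stood at 2.02 ± 0.64, Ntsr2 at 1.51 ± 0.48 and Agt at 1.34 ± 0.53. The neuroblast sum was 185 to 257 against 284 to 410 CPM, with Dcx at 1.59 ± 0.73, Sp9 at 0.83 ± 0.89 and Gad1 at 0.78 ± 0.23. Of 8 neuroblast genes tested, 7 were above 0 and 1 below. Groups were apart for 2 of them, Gad1 among these, but overlapped for Dcx and Sp9. The stem cell sum was 6267 to 8318 against 6715 to 8531 CPM, with Prom1 at 0.81 ± 0.31, Nes at -0.43 ± 0.39 and Hes5 at 0.38 ± 0.42. The part of these differences in the values of the 9 genes was not tested.

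The genes most like Sox10 across the 6 libraries, by Pearson's r of log2 CPM among 12627 genes with a mean of at least 2 CPM, were Dhx32, Soat1 and Tnfaip2, each with r = 0.98. Those most like Olig2 were Usp31 (r = 0.99), Col19a1 (r = 0.99) and Stambpl1 (r = 0.99). An r of at least 0.95 was reached by 27 genes with Sox10 and by 45 with Olig2. Among the 9, r over the same 6 libraries was 0.87 between Olig1 and Olig2 and 0.88 between Olig2 and Cspg4. It was -0.92 between Sox10 and Cspg4 and 0.77 between Pdgfra and Lhfpl3. The 6 libraries share the group difference, so these values describe the libraries.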

How the data were processed

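Cultured neural stem cells from postnatal day 7 mice, 3 libraries per group, were sequenced from TRIzol-extracted RNA. The authors deposited raw counts per gene, per the file headers, beside their own comparison as a log2 ratio of control over knockout, with a p-value, raw and adjusted, in the deposited table. The submitters' processing notes list HISAT2 2.1.0, Bowtie2 2.2.3 and mm10 with no roles, and no source used here gives the counting tool or strand setting. Of the gene IDs, 99.8% were found in GENCODE M21 (GRCm38), 94.6% of those with the same ends.

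Libraries were grouped by their titles. Genes were tested with edgeR 4.0.16 (R 4.3.3, limma 3.58.1): TMM, filterByExpr (minimum count 10, total 15), robust dispersions and the quasi-likelihood test on group over 15087 genes, with Benjamini-Hochberg adjustment. Standard errors were taken from the F statistic. Log2 CPM used a prior count of 2, and 1 CPM stood for 16.7 to 18.6 counts. All pairs of libraries differed by more than sampling noise (chi-square per degree of freedom at least 19.4 over genes with 60 counts or more), so each counted as a sample. This check cannot show that the libraries came from separate animals or cultures. After subtraction of group means, libraries of the same number had correlations across genes of 0.43, 0.35 and 0.51, the highest mean of the 6 pairings, so the numbers, though no label states a pairing, were taken to pair the libraries and were used as a block in alternative fits with edgeR, DESeq2 1.42.0 and limma-voom. Other alternatives were RLE and total-count scaling, no filter, 1 CPM in 3 libraries, a Y-linked covariate, control 3 alone and each library left out. The tests were tried on simulated counts.

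The 9 genes, the lists and the alternatives were chosen with earlier results of these data known. Named were all 9, Sirt6, the 3 genes most like Sox10 and Olig2 in pattern and, from each list, up to 3 genes with the largest absolute log2 fold change at a mean of at least 2 CPM. Some genes this rule takes are not reported here. Other list genes were chosen after their values were seen.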

Additional observations from a re-analysis of the deposited data

How the results depend on the processing

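The log2 fold changes of Olig1, Olig2, Sox10 and Cspg4 kept their direction under all 17 alternatives, from -0.58 to -0.29, -0.62 to -0.32, 1.26 to 2.41 and -1.21 to -0.39. With the replicate block in DESeq2, Olig1 (-0.47), Olig2 (-0.52) and Sox10 (1.85) passed the threshold, and no other alternative brought any of the 9 past it. Each of the other genes changed sign under some alternatives, Neu4 among them although its main estimate was 0.39. Lhfpl3 stood at 0.042 by limma-voom, 0.044 with the block in edgeR, 0.045 with the block in DESeq2 and 0.0453 with the block in limma-voom, 0.49 with the Y-linked covariate and 0.60 against control 3 alone. Sox5 stood at 0.018 and Neu4 at -0.052 with the covariate, and at 0.010 and -0.35 against control 3 alone. Leaving out each library in turn gave ranges of -0.25 to 0.37 for Pdgfra, -0.058 to 0.34 for Sox6, -0.24 to 0.30 for Lhfpl3, -0.025 to 0.19 for the Olig1 to Olig2 log2 ratio and -0.24 to 0.14 for the median of the 9. For the Sox10 to Olig2 ratio the range was 1.81 to 2.92, and for Cspg4 to Pdgfra -1.66 to -0.85. With the replicate block, as an exact sign-flip test of 3 pairs, p was 0.25 for both, the smallest that test allows. For Sox10 to Olig2 that p was fixed by the signs of the pairs of each gene. Over all genes DESeq2 called 5, edgeR without a filter 1 and DESeq2 with the block 465, and 0 to 2 were called with a library left out. Genes at an unadjusted p under 0.05 numbered 820 without a filter, 1880 with the block in edgeR, 1909 in limma-voom and 1499 in DESeq2. The cause of these shifts was not tested. With a library left out, as a choice made after seeing the data that can only add to the count, 4 to 6 of the 9 had groups apart. Over all genes tested the share then was 15.3% to 23.6%, against 8.60% with every library kept. The fit on control 3 alone takes its spread from the knockout-labelled libraries. The smallest counts were 55 for Sox10 and 80 for Neu4, and the Poisson intervals of the 3 Sox10 controls did not overlap, so their spread exceeds counting error.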

Other observations

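Around Olig1 and Olig2, 11 other genes within 300000 bases were tested. Their log2 fold changes by edgeR ran from -0.25 to 0.63, and 0 had an unadjusted p under 0.05. Of the more abundant ones, Paxbp1, which lies before Olig2, stood at -0.06 ± 0.12 (SE) with a mean of 126 CPM, Synj1, which encodes synaptojanin, at -0.04 ± 0.13 with 93.1 CPM, and Ifnar1, an interferon receptor gene beyond Olig1, at -0.03 ± 0.10 with 97.4 CPM. The difference between these and the OLIG genes was not tested, and the window was chosen after values were seen.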
